A study of Canis lupus familiaris with 6 samples.

Results

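The genes of glycolysis and of the cellular response to low oxygen were followed in 3 canine mammary tumor cell lines, alone and together with myeloid-derived suppressor cells. A list of 51 gene symbols was used, and a gene entered where a non-control probe of the array carried its symbol. Of these, 46 genes had a probe, with 94 of the 43603 probes, out of 35581 gene names on the array. The genes were placed in 7 roles, from glucose entry to the targets of the hypoxia-inducible factors.

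The lines were P114, from an anaplastic cancer, CMT-U27, from a simple carcinoma, and CMT-U309, from a spindle cell tumor. Each was grown as a monoculture or with MDSCs held in culture inserts. The MDSCs were Gr1+, CD11b+ and CD33+ cells sorted from the blood of healthy dogs, and no genotype or drug differed between the cultures. Per the labels, the co-culture lasted at least 72 h, whereas the methods of the study give a shorter time. RNA of both cultures of a line was hybridised on 1 two-colour oligonucleotide array and again on a dye-swap array with the labels exchanged, which gave 6 arrays with 12 channels. A line thus gave 1 co-culture RNA and 1 monoculture RNA, the dye-swap being a technical repeat, and the p-values below rest on the spread between lines, or within lines, of single cultures.

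Glycolysis splits glucose into pyruvate through a chain of cytosolic enzymes, many of which exist as isoenzymes with their own tissue pattern. Pyruvate either enters the mitochondrion through pyruvate dehydrogenase, which the PDK kinases inhibit, or is reduced to lactate and exported by the monocarboxylate transporters. When oxygen is low, the EGLN hydroxylases no longer mark HIF-1α and HIF-2α for VHL, and the stabilised factors switch on most glycolytic genes together with targets such as carbonic anhydrase IX. Tumor cells often run glycolysis with oxygen present, and mammary carcinomas are known for patches of hypoxia.

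Levels are log2 processed signals, with the medians of the 12 channels made equal, for the brightest probe of each gene, and a level is never set against that of another probe. Feature Extraction flags a spot as well above background from its signal and the spread of the background. The brightest probe was well above background in all 12 channels for 36 genes and in some channels for 7, namely PDK4 in 11, SLC2A3 in 10, HK3, CA12 and SLC16A3 in 9 each, PFKFB2 in 8 and EPAS1 in 5. No channel was well above background for PFKFB1, PFKFB4 and LDHC, so they enter the counts over all 46 genes but are not described one by one. No probe was named GPI, ALDOA, PGK1, PKM2 or EGLN3.

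Before the results, the state of the arrays has to be given. Between 53.0% and 81.0% of probes were well above background in a channel, and no spot was saturated. Precision is limited by the small number of arrays. On the 2 arrays of P114 the co-culture over monoculture log2 ratios of all probes were negatively correlated (r = -0.39). The same correlation was 0.26 in CMT-U27 and -0.09 in CMT-U309. Over the 46 genes it was -0.05, 0.41 and 0.16. These correlations run across probes, which are not independent replicates, and their cause was not tested. The direction of each array was taken from the dyes in the labels. Whether the 2 P114 arrays do run the same way cannot be told from these data. Every sign given for P114 thus rests on those labels. Several counts over the 46 genes are also given with the ratios of either array turned. Counts of subsets and medians by role or line are not. Each line lay on a slide and in a scan of its own, so line and slide cannot be told apart. The labelled cell type was checked against markers. Of 9 listed epithelial genes, 4 had a probe (CDH1, EPCAM, KRT14, KRT19), and their summed log2 level lay between 16.71 and 16.89 in CMT-U27 and between 12.22 and 12.80 in P114 and CMT-U309. KRT14 went against the other 3, with line means of 11.86 in P114, 11.05 for CMT-U27 and 12.59 for CMT-U309. The sum of the 6 of 8 mesenchymal genes that had a probe lay between 12.95 and 13.06 in CMT-U27 and between 18.26 and 18.97 in P114 and CMT-U309.

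Most of the genes differed between the lines, and P114 more often had the highest level than either other line. The F-test over the 3 lines (limma, Benjamini-Hochberg adjusted p under 0.05) was passed by 39 of 46 genes (84.8%), against 53% of all genes and 71.2% of those well above background in all channels. The 7 genes that did not pass were LDHC, PFKFB1, PFKM, ANKRD37, VHL, TPI1 and PFKFB4. P114 had the highest line mean for 31 of the 46 genes (67.4%, against 38.3% of all genes). CMT-U27 had it for 9 (19.6%, against 32.7%) and CMT-U309 for 6 (13%, against 29%). Of the 36 genes well above background in all channels, P114 was highest for 26 (72.2%, against 33.5%). The lowest line mean was that of CMT-U27 for 28 genes (60.9%, against 41.9% of all genes). It was that of CMT-U309 for 13 (28.3%, against 37.1%) and of P114 for 5 (10.9%, against 20.9%). This order rests on the scaling of the channels. Without scaling P114 had the highest mean for 13 genes and CMT-U309 for 20, while the median of all genes then lay at -0.28 for P114 minus CMT-U27 and at -0.64 for P114 minus CMT-U309. With quantile normalization or with normexp, loess and Aquantile, P114 was highest for 29 and 27 genes.

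**Figure D1:**
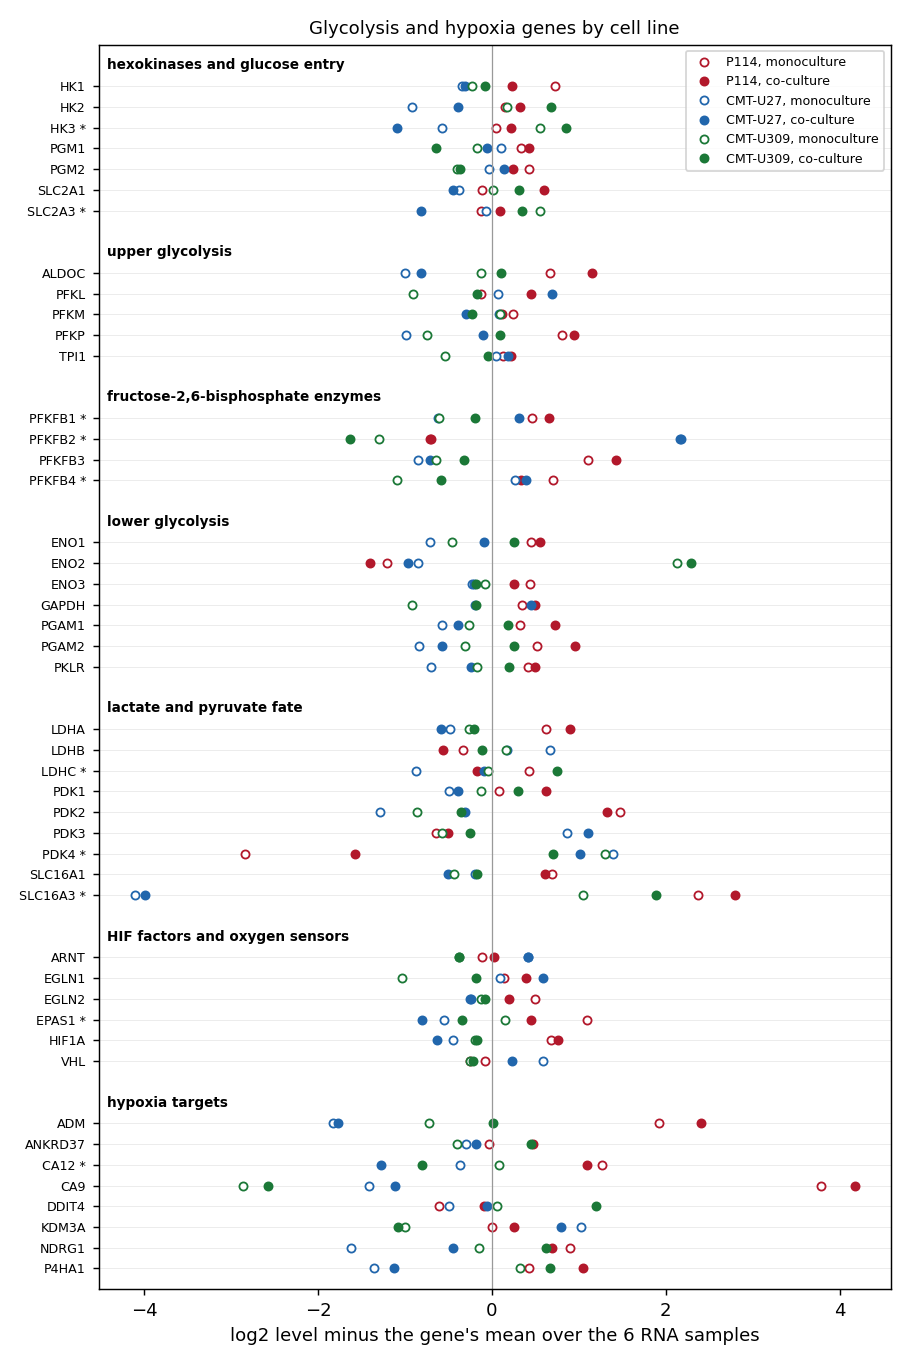
Log2 level of each gene in the 6 RNA samples minus the gene's own mean over them (x axis, log2 units; open circles monoculture, filled circles co-culture, coloured by line), grouped by role. An asterisk marks a gene whose brightest probe was not well above background in all 12 channels. CA9, ADM, SLC16A3, ENO2, PFKFB2 and PDK4 spread most between lines, and the cultures of a line lie up to 1.27 apart for these genes, as for PDK4 in P114.

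The difference P114 minus CMT-U27 was past an adjusted p of 0.05 and a fold of 2 for 16 genes higher in P114 (34.8%, against 11.6% of all genes) and for 3 lower (6.52%, against 11.9%). The difference P114 minus CMT-U309 passed for 10 higher (21.7%, against 7.44%) and 2 lower (4.35%, against 6.84%). Among the 10 is PFKFB4, which no channel showed well above background. The difference CMT-U27 minus CMT-U309 passed for 4 higher (8.7%, against 14.6%) and 7 lower (15.2%, against 13.6%). The median difference over the 46 genes was 0.69, 0.61 and -0.24, beside 0.19, 0.13 and -0.00 over all genes. Since the 2 RNA samples of a line share their arrays and slide, these p-values measure only the spread within lines.

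Among the targets of the hypoxia-inducible factors, CA9 separated the lines most. CA9 is the membrane carbonic anhydrase that acidifies the surroundings of hypoxic cells. Its log2 level was 13.80 in P114 monoculture and 14.18 in P114 co-culture, 8.60 and 8.90 in CMT-U27, and 7.15 and 7.44 in CMT-U309. The lines did not overlap, and the lowest P114 channel was at 13.77. P114 exceeded CMT-U27 by 5.24 ± 0.14 (SE; adjusted p = 2.53e-09) and CMT-U309 by 6.69 ± 0.14 (adjusted p = 2.24e-09), and CMT-U27 exceeded CMT-U309 by 1.45 (adjusted p = 1.42e-05). The highest and lowest line means were 104-fold apart. The brightest probe lies at chr11:55240072-55240131 of the dog build canFam2, and a second probe lies just upstream of it on the plus strand, at chr11:55239952-55240011. Exon positions were not used here. The sequence of the second is shown because it is an independent stretch of the same transcript that gave the same order of lines, with line means of 13.41, 8.13 and 6.66.
CA9 second probe: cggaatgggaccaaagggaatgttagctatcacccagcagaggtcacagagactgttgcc

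ADM encodes adrenomedullin, a secreted vasodilator peptide. Its level was 14.17 and 14.65 in the P114 monoculture and co-culture, 10.42 and 10.48 in CMT-U27, and 11.52 and 12.26 in CMT-U309. P114 was 3.96 ± 0.17 (SE) above CMT-U27 (adjusted p = 5.52e-08), a fold of 15.6. The other carbonic anhydrase, CA12, was also higher in P114 than in CMT-U27 (adjusted p = 0.000453), but only 2 of 4 channels of CMT-U27 and 3 of 4 of CMT-U309 were well above background, so the fold is given as a bound of at least 1.19. Such bounds were taken after normexp, loess and Aquantile, with the dim channels set no lower than the lowest signal well above background. An adjusted p-value beside a bound, here and below, is that of the limma fit of the scaled processed signals. It does not test the bound itself. Thus both carbonic anhydrases and ADM had their highest level in P114.

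P4HA1 is a subunit of the prolyl hydroxylase of collagen. Its levels of 11.01 and 11.64 in P114 and of 10.90 and 11.25 in CMT-U309 overlapped, and both lines stood above 9.23 and 9.46 in CMT-U27. The difference P114 minus CMT-U27 was 1.98 (adjusted p = 3.15e-06). NDRG1, a stress-responsive growth suppressor, had 7.93 and 7.72 in P114, 5.42 and 6.59 in CMT-U27 and 6.88 and 7.66 in CMT-U309. P114 exceeded CMT-U27 by 1.83 ± 0.29 (SE; adjusted p = 0.000663), and the 2 cultures of CMT-U27 were themselves 1.17 apart. KDM3A, a histone H3 lysine demethylase, had another order, with 12.11 and 11.87 in CMT-U27, 11.08 and 11.33 in P114 and 10.08 and 9.99 in CMT-U309. All 4 of its probes gave that order. DDIT4, an inhibitor of mTOR signalling, was highest in CMT-U309, at 6.96 and 8.09, against 6.29 and 6.80 in P114 and 6.40 and 6.84 in CMT-U27. ANKRD37, a small ankyrin repeat protein, had one of the smallest spreads between lines, with line means 0.46 apart.

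**Figure D2:**
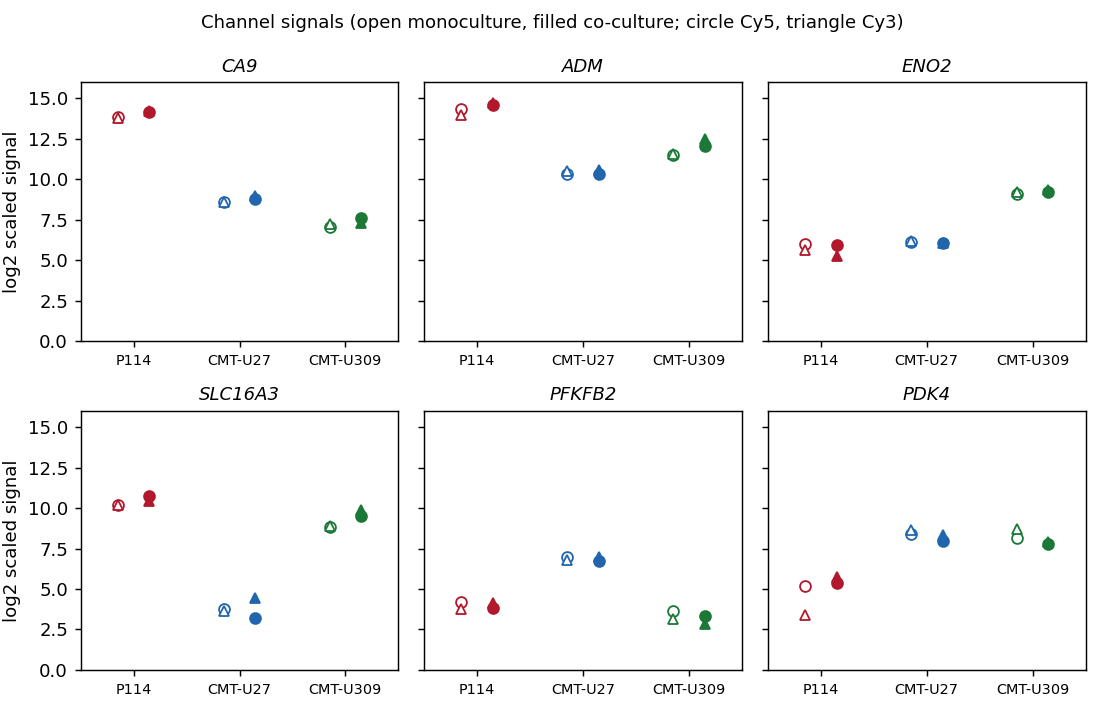
Log2 scaled signal (y axis) of 6 genes in each of the 12 channels, by line (x axis; open symbols monoculture, filled co-culture, circles Cy5, triangles Cy3). CA9, ADM and SLC16A3 were highest in P114, ENO2 in CMT-U309 and PFKFB2 in CMT-U27, PDK4 was lowest in P114, and SLC16A3 was well above background in only 1 of the 4 CMT-U27 channels.

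The transport and fate of pyruvate and lactate set the lines apart by isoform. SLC16A3 encodes MCT4, the transporter that exports lactate from glycolytic cells. Its level was 10.18 and 10.60 in P114, 3.70 and 3.81 in CMT-U27 and 8.85 and 9.70 in CMT-U309, where the first value is the monoculture. It was well above background in all 4 channels of P114 and CMT-U309 and in 1 of 4 of CMT-U27. The difference is therefore given as a bound, at least 8.67-fold higher in P114 than in CMT-U27 (adjusted p = 6.19e-09) and at least 3.96-fold higher in CMT-U309 (adjusted p = 1.75e-08). Its only probe lies at chr9:3110233-3110292 on the minus strand of canFam2 and is shown because no second probe checks this difference.
SLC16A3 probe: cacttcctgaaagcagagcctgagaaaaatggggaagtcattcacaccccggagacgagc

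SLC16A1, which encodes the related transporter MCT1, differed far less, with line means of 9.25, 8.25 and 8.30 in P114, CMT-U27 and CMT-U309. LDHA, the lactate dehydrogenase subunit of fermenting tissues, was at 16.12 and 16.39 in P114, 15.01 and 14.91 in CMT-U27 and 15.23 and 15.28 in CMT-U309, so that P114 was 1.30 above CMT-U27 (adjusted p = 8.8e-05). LDHB, the subunit of oxidative tissues, ran the other way, with line means of 13.71, 14.58 and 14.18 in the same order. The difference P114 minus CMT-U27 for LDHB was -0.87 (adjusted p = 0.000737).

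Of the 4 pyruvate dehydrogenase kinases, PDK1 and PDK2 were highest in P114 and PDK3 in CMT-U27, while PDK4 was lowest in P114. PDK2 was higher in P114 (9.32 and 9.17) than in CMT-U27 (6.56 and 7.54) and CMT-U309 (6.98 and 7.49), by 2.20 (adjusted p = 5.54e-05) and 2.01 (adjusted p = 0.000196). PDK3 was higher in CMT-U27 (10.37 and 10.62) than in P114 (8.87 and 9.01) and CMT-U309 (8.94 and 9.26). PDK4 was low in P114, at 4.29 and 5.56 with 3 of 4 channels well above background, beside 8.53 and 8.15 in CMT-U27 and 8.44 and 7.84 in CMT-U309. PDK4 was at least 2.32-fold higher in CMT-U27 than in P114 (adjusted p = 5.12e-05). The HIF target PDK1 had 11.21 and 11.75 in P114, 10.65 and 10.75 in CMT-U27 and 11.01 and 11.44 in CMT-U309, and 1 of its 3 probes put CMT-U309 and not P114 highest.

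In lower glycolysis, the neuronal enolase ENO2 stood out in the spindle cell line. ENO2 was at 9.13 and 9.29 in CMT-U309, 5.80 and 5.61 in P114 and 6.16 and 6.05 in CMT-U27. P114 minus CMT-U309 was -3.51 ± 0.19 (SE; adjusted p = 7.2e-07), and P114 and CMT-U27 did not differ past the threshold (adjusted p = 0.127). The ubiquitous ENO1 had line means of 15.84, 14.94 and 15.24 in P114, CMT-U27 and CMT-U309, and the muscle form ENO3, measured at 11.72 and 11.52, 11.05 and 11.07, and 11.20 and 11.09, spanned only 0.56. ENO1 and ENO3 also passed the F-test, with P114 highest and a span for ENO1 of 0.90. The only ENO2 probe, at chr27:41152134-41152193 on the minus strand, is shown because its difference rests on it.
ENO2 probe: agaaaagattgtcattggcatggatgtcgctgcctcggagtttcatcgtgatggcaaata

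Of the phosphoglycerate mutases, the muscle form PGAM2 was at 11.43 and 11.88 in P114, 10.09 and 10.34 in CMT-U27 and 10.61 and 11.17 in CMT-U309, and P114 was 1.44 above CMT-U27 (adjusted p = 2.17e-05). This order depends on the probe. A second PGAM2 probe, well above background in 9 channels, overlaps the brightest one by 49 bases with the differences C29T and C48T, counted from the 5′ end of the brightest probe, and its line means of 5.14, 5.85 and 4.76 put CMT-U27 highest. The other mutase, PGAM1, had line means of 13.63, 12.62 and 13.06. PKLR, the pyruvate kinase of liver and red cells, had 6.97 and 7.04 in P114, 5.85 and 6.31 in CMT-U27 and 6.38 and 6.75 in CMT-U309.

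GAPDH, the glyceraldehyde phosphate dehydrogenase often used as a reference gene, was not level across the lines. Its values were 17.15 and 17.29 in P114, 16.61 and 17.26 in CMT-U27 and 15.89 and 16.62 in CMT-U309, and P114 exceeded CMT-U309 by 0.97 (adjusted p = 0.00311). The 7 probes that carried its name were all well above background in all 12 channels. They all put P114 highest and CMT-U309 lowest, though P114 minus CMT-U27 was as small as 0.06. Of these probes, 4 overlap in the same stretch of the transcript on the minus strand of chromosome 27 and are not independent of each other, which their sequences show. Capitals mark bases that differ from the brightest probe, chr27:41496887-41497055. Counted from the 5′ end of that probe, probe B differs by A20G, T43C and G44A over 58 shared bases, probe C by A20G, G45A and G51T over 55, and probe D by 0 bases over 44.
GAPDH brightest probe: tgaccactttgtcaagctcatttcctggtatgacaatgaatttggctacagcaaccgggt
GAPDH probe B: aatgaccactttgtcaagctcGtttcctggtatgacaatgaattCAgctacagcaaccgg
GAPDH probe C: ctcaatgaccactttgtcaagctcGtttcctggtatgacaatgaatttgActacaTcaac
GAPDH probe D: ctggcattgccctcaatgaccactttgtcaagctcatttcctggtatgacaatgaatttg

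In upper glycolysis, the phosphofructokinases again differed by isoform. The platelet form PFKP was higher in P114 (12.16 and 12.29) than in CMT-U27 (10.36 and 11.24) and CMT-U309 (10.60 and 11.44), by 1.42 (adjusted p = 0.000176) and 1.20 (adjusted p = 0.00097). The liver form PFKL was lowest in CMT-U309 (9.29 and 10.03), against 10.08 and 10.65 in P114 and 10.27 and 10.89 in CMT-U27. The muscle form PFKM had the smallest spread of all the genes measured in every channel, at 11.99 and 11.88, 11.83 and 11.46, and 11.84 and 11.53, with line means 0.29 apart. ALDOC, the brain aldolase, followed the order P114 (12.15 and 12.63), CMT-U309 (11.35 and 11.59), CMT-U27 (10.49 and 10.67), with a difference P114 minus CMT-U27 of 1.81 (adjusted p = 3.9e-06) and the same order at all 3 of its probes. TPI1, the triose phosphate isomerase, had line means 0.47 apart, and the sign of P114 minus CMT-U309 turned with the scaling.

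The bifunctional PFKFB enzymes make and remove fructose-2,6-bisphosphate, the activator of phosphofructokinase. PFKFB3, the kinase-rich form induced by hypoxia, was at 12.98 and 13.29 in P114, 11.02 and 11.16 in CMT-U27 and 11.23 and 11.55 in CMT-U309. P114 was above CMT-U27 by 2.05 (adjusted p = 1.15e-06) and above CMT-U309 by 1.75 (adjusted p = 7.33e-06). PFKFB2, the heart form, had 6.88 and 6.86 in CMT-U27, where all 4 channels were well above background, 3.99 and 4.01 in P114 with 1 of 4, and 3.40 and 3.07 in CMT-U309 with 3 of 4. Hence PFKFB3 was the highest in P114 and PFKFB2 in CMT-U27, where it was at least 1.72-fold above P114 and at least 1.83-fold above CMT-U309 (adjusted p = 3.82e-06 for the latter).

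For glucose entry, all 7 genes passed the F-test (100%, against 53% of all genes). No difference between P114 and another line passed with a fold over 2. CMT-U27 was lower than CMT-U309 by that rule for 2 of the 7 (28.6%, against 13.6%). The glucose transporter SLC2A1 (GLUT1) was at 12.50 and 13.21 in P114, 12.23 and 12.17 in CMT-U27 and 12.63 and 12.93 in CMT-U309, with overlapping values in P114 and CMT-U309, and its second probe put CMT-U309 highest. SLC2A3 (GLUT3) was highest in CMT-U309, and 3 of 4 channels were well above background in P114 and in CMT-U27. As a bound, CMT-U309 was at least 1.16-fold above CMT-U27 and at least 1.08-fold above P114. The muscle and tumor hexokinase HK2 had 12.79 and 12.97, 11.72 and 12.25, and 12.81 and 13.32, and CMT-U27 was 1.08 under CMT-U309 (adjusted p = 0.000155). A second HK2 probe, also well above background in all 12 channels, gave line means of 6.72, 8.09 and 7.99, which puts P114 lowest and is the clearest disagreement between 2 probes of a gene. HK1 was highest in P114, at 9.81 and 9.32, and HK3, measured in 9 channels, was at least 1.24-fold lower in CMT-U27, with 2 of 4 channels, than in CMT-U309 (adjusted p = 0.00244). The phosphoglucomutases PGM1 and PGM2, which link glucose-6-phosphate to glycogen, spanned 1.72-fold and 1.65-fold, with PGM1 at 13.03 and 13.13, 12.80 and 12.64, and 12.53 and 12.05.

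Among the regulators, HIF1A, the oxygen-labile subunit of the main factor, was at 12.23 and 12.31 in P114, 11.11 and 10.92 in CMT-U27 and 11.35 and 11.38 in CMT-U309. P114 exceeded CMT-U27 by 1.26 ± 0.14 (SE; adjusted p = 4.8e-05) and CMT-U309 by 0.90 (adjusted p = 0.000814), and all 3 probes put P114 highest. These are RNA levels, whereas HIF-1α is controlled mainly through the stability of the protein, which was not measured. EPAS1, which encodes HIF-2α, was near background, with 1, 1 and 3 of 4 channels well above it. The shared partner ARNT and the ubiquitin ligase subunit VHL had line means 1.73-fold and 1.56-fold apart, with CMT-U27 highest for both. Of the oxygen sensors, EGLN1 was lowest in CMT-U309 (7.58 and 8.43, against 8.75 and 9.01 in P114 and 8.71 and 9.20 in CMT-U27), and EGLN2, at 10.54 and 10.24, 9.80 and 9.78, and 9.92 and 9.95, was highest in P114.

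Whether MDSCs changed these genes was asked with log2 ratios of co-culture over monoculture, averaged over the 3 lines and tested against 0. Most of the ratios lay above 0, and many of the larger ones belonged to hypoxia targets and to enzymes of the glycolytic chain, but none passed the adjusted test. With limma and Benjamini-Hochberg adjustment over all probes, 0 of 46 genes and 0% of all genes were past an adjusted p of 0.05, the lowest adjusted p among the 46 being 0.499. At the thresholds of the study's methods, an unadjusted p under 0.05 with a fold over 2, 0 genes passed, against 1.35% of all genes and 0.113% of those well above background in all channels. At an unadjusted p under 0.05 without a fold, a rule added after the data had been seen, 19 genes had a ratio above 0 (41.3%, against 5.61% of all genes) and 3 below it (6.52%, against 4.51%). Of the 36 genes well above background in all channels, 18 were above 0 by that rule (50%, against 6.82% of all such genes) and 2 below it (5.56%, against 2.94%). Among the brightest of 3 equal groups of such genes, the share above 0 was 54.5% of 22, against 9.14%. With the methods' t-test the counts of 19 and 3 among the 46 genes were 5 and 0. The share of all genes by that test is not given here. The ratio was above 0 for 30 genes (65.2%, against 50.1%), 25 of them among the 36 (69.4%, against 51.6%), and its median was 0.25, beside 0.0005 over all genes. With the P114 ratios turned on the array with co-culture in Cy5, 26 of the 46 genes lay above 0, with a median of 0.08. Turned on the other array, 34 lay above 0, with a median of 0.16. Of all genes, 16385 and 16606 then lay above 0, with medians of -0.005 and 0.0002.

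The count of 19 rests on 1 line more than on the others. Without CMT-U309 it was 3, against 1.53% of all genes, without CMT-U27 it was 13, against 1.33%, and without P114 it was 22, against 17.6%. The dye-swap arrays of P114 had the most negative correlation over all probes, -0.39, beside 0.26 in CMT-U27 and -0.09 in CMT-U309. Without P114, 12 genes were higher in co-culture and 3 lower at an adjusted p under 0.05 (26.1% and 6.52%, against 8.43% and 7.14% of all genes). That fit rests on 2 lines. The 12 were ANKRD37, DDIT4, EGLN1, ENO1, GAPDH, HK2, NDRG1, PDK2, PFKL, PFKP, PGAM1 and PGAM2, with log2 ratios from 0.32 to 0.97. The 3 were CA12, LDHB and PFKM, with -0.90, -0.39 and -0.35. Over the 3 lines, CA12 was well above background in only 3 of 6 co-culture channels, against 6 of 6 monoculture channels. Its ratios with co-culture in Cy5 were -0.16 in CMT-U27 and -0.06 in CMT-U309. With the P114 ratios turned on the array with co-culture in Cy5, the count of 19 was 13 (28.3%, against 16.1%), and turned on the other array it was 10 (21.7%, against 3.19%). In the limma fit without P114, the lowest adjusted p-value of the 12 genes was that of PFKP, 0.000269, with a log2 ratio of 0.86.

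**Figure D3:**
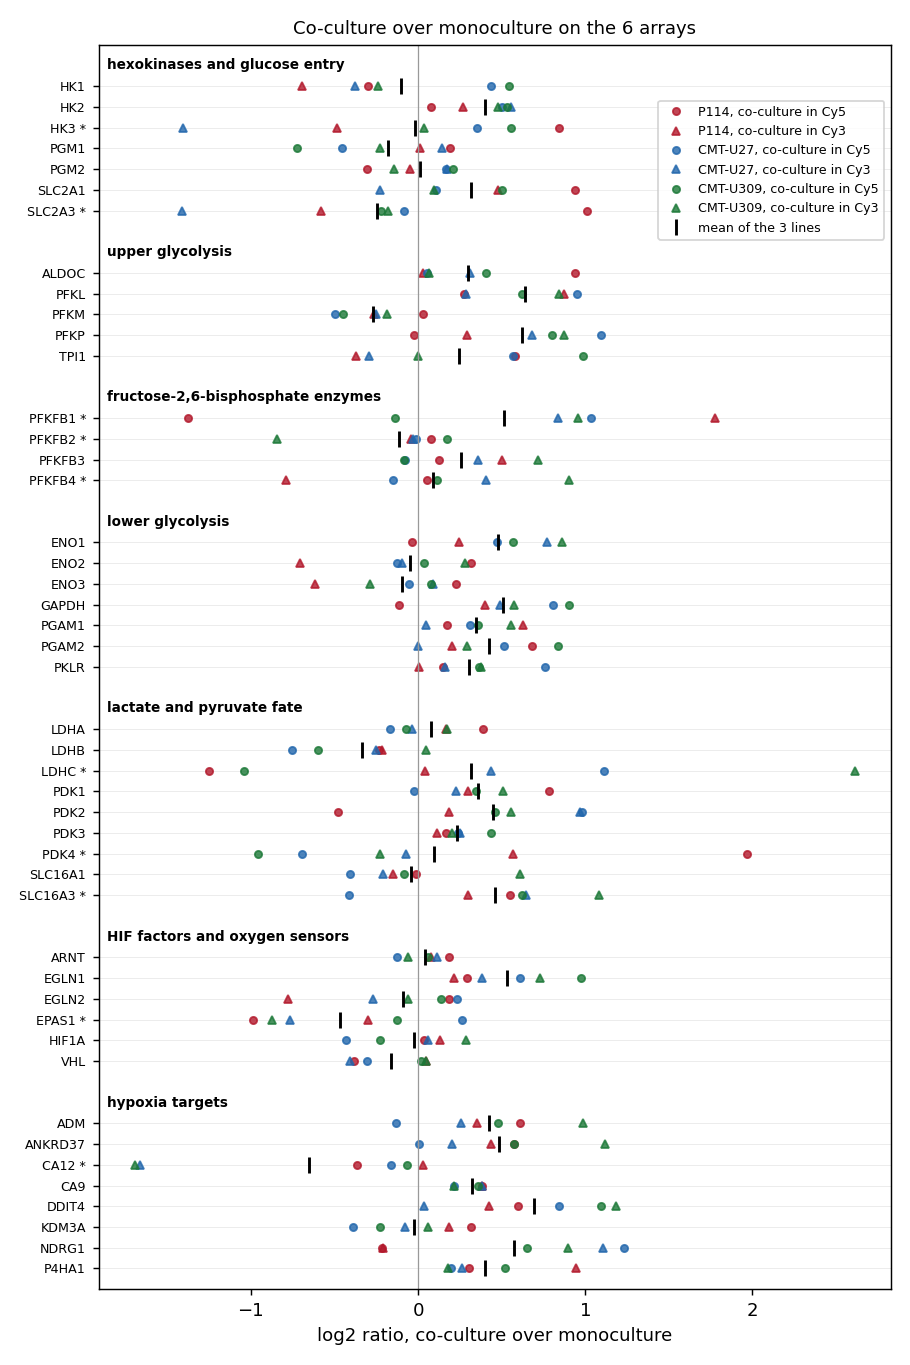
Log2 ratio of co-culture over monoculture (x axis) for each gene on each of the 6 arrays (circles, co-culture RNA in Cy5; triangles, in Cy3; coloured by line), with a black bar for the mean of the 3 lines. An asterisk marks a gene whose brightest probe was not well above background in all 12 channels. For 11 genes all 6 points lie above 0, and for 0 genes all lie below it.

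Counted by array, 11 genes had a ratio above 0 on all 6 arrays (23.9%, against 2.39% of all genes and 3.94% of those well above background in all channels), and 0 below 0 on all 6 (against 1.78%). They were ALDOC, ANKRD37, CA9, DDIT4, EGLN1, HK2, P4HA1, PDK3, PFKL, PGAM1 and PKLR. For ANKRD37 in CMT-U27 and PKLR in P114 the lowest of the 6 was 0.00 after rounding. With the P114 array with co-culture in Cy5 turned, 4 genes were above 0 on all 6 (8.7%, against 8.03%), and with the other turned 0 were (against 2.67%). On both arrays of a line, 23 genes lay above 0 in P114 (50%, against 19.9%), 19 in CMT-U27 (41.3%, against 32%) and 25 in CMT-U309 (54.3%, against 26.9%). The P114 share was 17.4% with the first of its arrays turned, against 32.2% of all genes, and 19.6% with the second, against 30.2%. The median ratio over the 46 genes was 0.14, 0.11 and 0.31 in these lines.

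**Figure D4:**
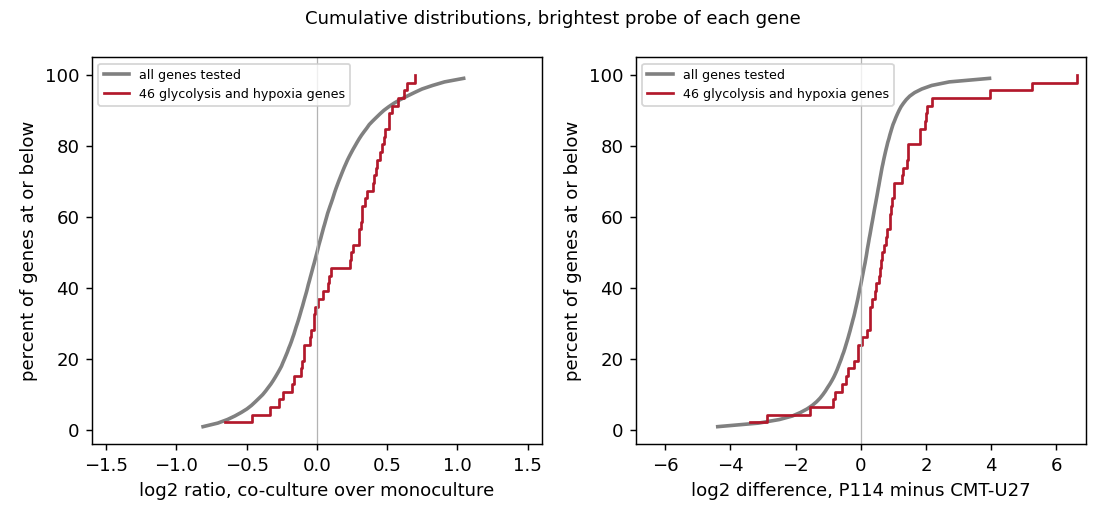
Percent of genes (y axis) at or below a given log2 value (x axis), for the 46 genes (red steps) and all genes tested (grey). Left, the ratio of co-culture over monoculture, with medians of 0.25 and 0.0005. Right, the difference P114 minus CMT-U27, with medians of 0.69 and 0.19.

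By role, the median ratio was 0.41 for the 8 hypoxia targets, 0.35 for the 7 genes of lower glycolysis, 0.30 for the 5 of upper glycolysis, 0.23 for the 9 of lactate and pyruvate fate, LDHC included, -0.02 for the 7 of glucose entry and -0.06 for the 6 HIF factors and oxygen sensors. Of the PFKFB enzymes, PFKFB3 alone was measured in every channel, with 0.26. An unadjusted p under 0.05 in limma was a rule added after the data had been seen. By it, 5.61% of all genes had a ratio above 0. The hypoxia targets held 6 of the 19 such genes among the 46, and 0 of the 46 passed the adjusted test. The lower glycolytic enzymes held 4, and upper glycolysis and pyruvate fate 3 each. The PFKFB enzymes, glucose entry and the regulators had 1 each, PFKFB3, HK2 and EGLN1. For the factors themselves, ARNT had a mean of 0.04, the 3 HIF1A probes gave -0.02 at the brightest and -0.26 and 0.48 at the others, and EPAS1 was near background.

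PFKL had the smallest unadjusted p of the set. On the P114 arrays its ratio was 0.28 with co-culture RNA in Cy5 and 0.87 in Cy3, on the CMT-U27 arrays 0.95 and 0.29, and on the CMT-U309 arrays 0.62 and 0.84. All 6 lay above 0, and the mean was 0.64 ± 0.11 (SE; unadjusted p = 0.0002, adjusted p = 0.499), a fold of 1.56. The other PFKL probe gave 0.21 (unadjusted p = 0.423). Both sequences are shown since they disagree in size. The first lies at chr31:40514222-40514281 and the other at chr31:40506023-40506683, on the plus strand, and they do not overlap.
PFKL brightest probe: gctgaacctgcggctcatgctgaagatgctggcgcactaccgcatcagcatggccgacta
PFKL other probe: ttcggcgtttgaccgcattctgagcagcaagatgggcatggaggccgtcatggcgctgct

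DDIT4 had the largest mean ratio of the genes measured in every channel. Its ratios were 0.60 and 0.42 in P114, 0.84 and 0.03 in CMT-U27 and 1.1 and 1.18 in CMT-U309, with the co-culture in Cy5 for the first of each pair, here and in what follows. The mean was 0.70 ± 0.18 (SE; unadjusted p = 0.0036), a fold of 1.62, and the CMT-U309 arrays stood highest. It has 1 probe, at chr4:26128150-26128209 on the plus strand, which is shown for that reason.
DDIT4 probe: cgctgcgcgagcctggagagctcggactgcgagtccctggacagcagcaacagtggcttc

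NDRG1 split the lines. Its ratios were -0.22 and -0.21 in P114, 1.23 and 1.11 in CMT-U27 and 0.65 and 0.90 in CMT-U309, so that both arrays of each line agreed in sign. The mean was 0.58 ± 0.24 (SE; unadjusted p = 0.0371). The second NDRG1 probe gave a mean of 0.06 (unadjusted p = 0.708), and it too was well above background in all 12 channels. The brightest probe lies on the minus strand within chr13:32742175-32745284 and the second within chr13:32732944-32735493, nearer the end of the gene, and both are shown because they do not give the same ratio.
NDRG1 brightest probe: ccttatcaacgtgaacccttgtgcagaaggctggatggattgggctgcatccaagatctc
NDRG1 second probe: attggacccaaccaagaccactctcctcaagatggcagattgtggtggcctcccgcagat

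The other hypoxia targets differed among themselves. For CA9 the 6 ratios were 0.38, 0.38, 0.22, 0.38, 0.36 and 0.21, alike in all 3 lines, with a mean of 0.32 ± 0.11 (SE; unadjusted p = 0.0163), and its second probe gave 0.61. ADM had 0.61 and 0.35 in P114, -0.13 and 0.26 in CMT-U27 and 0.48 and 0.99 in CMT-U309. ANKRD37 had 0.58 and 0.44, 0.00 and 0.21, and 0.58 and 1.12, with a mean of 0.49, and P4HA1 had 0.31 and 0.94, 0.20 and 0.26, and 0.52 and 0.18, with a mean of 0.40. In both, CMT-U27 had the lowest mean ratio. CA12 went the other way, with a mean of -0.65 (unadjusted p = 0.0251) with -1.66 and -1.70 on the Cy3 arrays of CMT-U27 and CMT-U309, where 2 and 3 of 4 channels were well above background, and the other 4 arrays gave -0.36 to 0.03. KDM3A had a mean of -0.02 at its brightest probe and of 0.12 to 0.47 at the other 3.

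In the glycolytic chain, PFKP had ratios of -0.03 and 0.29 in P114, 1.1 and 0.68 in CMT-U27 and 0.80 and 0.87 in CMT-U309, with a mean of 0.62 ± 0.15 (SE; unadjusted p = 0.00245). GAPDH had -0.11 and 0.40, 0.81 and 0.49, and 0.90 and 0.57, with a mean of 0.51 ± 0.15 (SE; unadjusted p = 0.00698). ENO1 had -0.04 and 0.25, 0.47 and 0.77, and 0.57 and 0.86, with a mean of 0.48 (unadjusted p = 0.00758). These 3 genes shared a pattern, with a mean ratio of 0.10 to 0.14 in P114 and of 0.62 to 0.89 in both other lines. The 7 GAPDH probes gave means from 0.35 to 0.53, and the second ENO1 probe gave 0.45. PGAM1 had 0.17 and 0.63, 0.31 and 0.05, and 0.36 and 0.55, ALDOC had 0.94 and 0.03, 0.05 and 0.31, and 0.40 and 0.07, and PGAM2 had 0.68 and 0.20, 0.52 and -0.00, and 0.84 and 0.30. PFKM, in contrast, had a mean of -0.27 (unadjusted p = 0.0355), with 0.03 and -0.26, -0.50 and -0.25, and -0.45 and -0.18, but 0.15 at its second probe. ENO2, ENO3 and TPI1 had means of -0.05, -0.09 and 0.24.

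For the fate of pyruvate, the lactate exporter SLC16A3 had a mean ratio of 0.46 (unadjusted p = 0.0191), with 0.62 and 1.08 in CMT-U309, 0.55 and 0.30 in P114, and -0.42 and 0.64 in CMT-U27, where it was near background. LDHA had a mean of 0.08 and LDHB of -0.33 ± 0.12 (SE; unadjusted p = 0.0165), with 5 of 6 arrays below 0 for LDHB. PDK1 had a mean of 0.36, PDK2 of 0.45 and PDK3 of 0.23. PDK4 had 1.97 and 0.57 in P114, -0.69 and -0.07 in CMT-U27 and -0.96 and -0.23 in CMT-U309, so that its mean of 0.10 hides opposite signs. SLC16A1 had a mean of -0.04.

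At the entry, HK2 had 0.08 and 0.27 in P114, 0.50 and 0.56 in CMT-U27 and 0.53 and 0.48 in CMT-U309, a mean of 0.40 ± 0.12 (SE; unadjusted p = 0.00648), and its second probe, which ordered the lines otherwise, gave 0.34. SLC2A1 had a mean of 0.32 (unadjusted p = 0.0555) with 0.94 and 0.48 in P114. HK1, HK3, PGM1, PGM2 and SLC2A3 had means from -0.24 to 0.01. Of the oxygen sensors, EGLN1 had 0.29 and 0.22, 0.61 and 0.38, and 0.97 and 0.73, with a mean of 0.53 ± 0.15 (SE; unadjusted p = 0.00453), while EGLN2 had -0.09. EGLN1 was thus the only regulator above 0 on all arrays, and it is itself a known target of the factors.

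**Figure D5:**
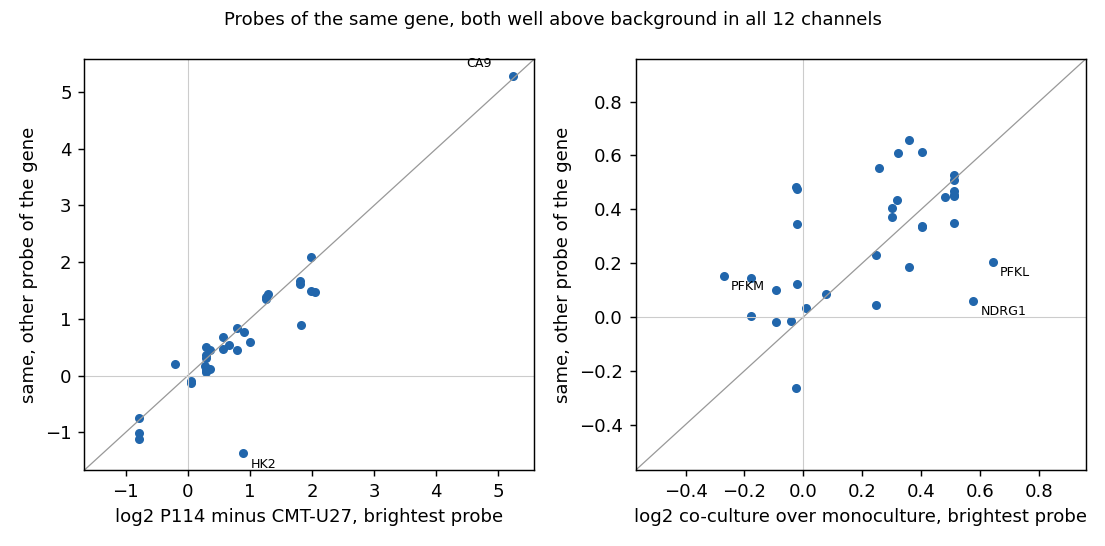
Each of the 34 further probes of 20 genes (y axis) against the brightest probe of the same gene (x axis), in log2 units, for probes well above background in all 12 channels. The grey diagonal marks equality. Left, P114 minus CMT-U27, where HK2 lies farthest off the line. Right, co-culture over monoculture, where HIF1A, NDRG1, KDM3A, PFKL and PFKM gave unlike values.

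The probes of a gene did not always agree. Of 20 genes with at least 2 probes well above background in all 12 channels, 15 had the same highest line and 17 the same lowest line at all of them. The sign of the co-culture ratio was shared in 15 of the 20.

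Markers of myeloid cells were read beside the co-culture ratios, since MDSCs were present in the inserts. Of 20 markers, 17 were tested, and 10 had a ratio above 0 (58.8%, against 50.1% of all genes), with 0 higher (against 5.61%) and 1 lower (5.88%, against 4.51%) at an unadjusted p under 0.05 in limma. At an adjusted p under 0.05 there were 0. No channel was well above background for ITGAM, which encodes CD11b, for SPI1 or for LYZ, and CD68, ITGB2 and S100A8 were in all 12. Their summed log2 level was 10.79 in both cultures of P114, 12.97 in the monoculture and 13.75 in the co-culture of CMT-U27, and 11.23 and 11.30 in CMT-U309. In CMT-U27, S100A8 alone had a mean ratio of 0.85, and its part in the ratios above was not tested. In such bulk RNA, fewer cells of a type and less RNA per cell cannot be told apart.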

How the data were processed

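The authors deposited the output of Feature Extraction (10.10.1.1 in the file headers, 10.7.3.1 in the submitters' processing notes) for 6 arrays, with a processed signal intensity per spot and dye that is background-subtracted and dye-normalized, and a table of log10 ratios, which equals the log10 ratio of co-culture over monoculture from these files within 4.997e-06. Probe positions are canFam2, per the file headers. Gene names are those of the array.

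From these files, the log2 of each processed signal was taken, outlier spots and control spots were left out, the 12 channels were brought to the same median, probes whose highest intensity did not exceed 10 were dropped, and the spots of a probe were averaged. This left 40860 probes and 33193 gene names. A gene is given by its brightest probe. The 2 arrays of a dye-swap, which carry the same RNA, were averaged. The mean ratio of the 3 lines was tested against 0, and the lines were compared over 6 RNA samples with line and condition as terms, with limma 3.58.1 in R 4.3.3 (lmFit, eBayes with trend) and Benjamini-Hochberg adjustment over all probes. Both fits were tested on simulated data, in which the planted changes were larger than any mean co-culture ratio over the lines given here. Recovery of smaller changes was not tested. A resampling step that goes with the test of the methods was not run. Line comparisons are not part of the methods.

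The array numbers mark which dye carried co-culture RNA. Correlations of the log2 ratios between arrays of the same number were -0.22, 0.03 and 0.40 for number 1 and 0.47, 0.51 and 0.61 for number 2, across probes, so the numbers did not pair the samples by the criterion that every correlation exceed 0.1. Alternatives were normexp with an offset of 50 and loess (and Aquantile for lines), quantile or no scaling, the deposited log10 ratios, other intensity filters, outlier spots kept, eBayes without a trend, the methods' t-test, fits of single arrays or channels, the median over probes, and leaving out a line or an array.

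The genes, roles and marker lists were chosen with earlier results of these data known. The values of 1 listed gene are not reported here. Genes given in full were those with the largest or smallest spread between lines, the largest co-culture ratio, 1 sign on all 6 arrays, or probes that disagree, and isoenzymes as groups. Python 3.11.15 with pandas 2.3.3 and matplotlib 3.10.9 read the files and drew the plots.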

Additional observations from a re-analysis of the deposited data

Results flagged for a closer look

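For 7 genes whose probe was well above background in all 12 channels, both arrays of one line had a log2 ratio of co-culture over monoculture below 0 and both arrays of another line a ratio above 0. The difference between the lines was not tested for any of them, since a line has 1 culture of each kind, and the signs in P114 rest on the dyes its labels give. NDRG1, the stress-responsive growth suppressor, had the widest gap, with a mean of -0.21 in P114 against 1.17 in CMT-U27, and its second probe gave a mean over the lines of 0.06. The phosphoglucomutase PGM1 was at -0.48 in CMT-U309 and 0.10 in P114, and PGM2 at -0.18 in P114 and 0.17 in CMT-U27. The demethylase KDM3A was at -0.24 in CMT-U27 and 0.25 in P114, and the lactate dehydrogenase LDHA at -0.10 in CMT-U27 and 0.28 in P114. The enolase ENO2 was at -0.11 in CMT-U27 and 0.16 in CMT-U309. VHL was at -0.36 in CMT-U27 and 0.04 in CMT-U309.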

How the results depend on the processing

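Of the alternatives to the counts of genes past a threshold, 94 gave a count within 1.5 times the reported one and 14 did not, and of those for single genes 423 kept direction and side of the threshold, 14 gained it, 54 lost it and 7 turned sign. For the 19 genes above 0 at an unadjusted p under 0.05, the methods' t-test gave 5 and eBayes without a trend 10. The shares of all genes for these tests are not given here. Leaving out a line gave 3 to 22. For the 3 below 0, normexp with loess gave 1 and the methods' t-test 0, and leaving out a line gave 0 to 6. The count at an adjusted p under 0.05 was 0 in all these settings except those that follow. Without P114 it was 15 (0 to 15 over the lines left out), beside 8.43% of all genes higher and 7.14% lower. With the P114 ratios turned on the array with co-culture in Cy5 it was 4, beside 2760 of the 33193 genes tested. In that setting ALDOC was -0.013. With the other P114 array turned, 10 genes were above 0 and 0 below at the unadjusted threshold, against 3.19% and 3.38% of all genes. Turning an array was chosen after seeing the data. With normexp, loess and Aquantile, 7 genes passed for P114 minus CMT-U309 in place of 12, and 7 for CMT-U27 minus CMT-U309 in place of 11. With only the arrays of one dye orientation, the F-test count of 39 was 32 or 41. For these line comparisons, the shares of all genes are not given here. The causes were not tested, beyond the fewer cultures when a line is left out.

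Signs turned for genes with little spread between lines. P114 minus CMT-U309 for TPI1, 0.47, was -0.26 with normexp, loess and Aquantile, -0.22 with quantile normalization and -0.30 without scaling. P114 minus CMT-U27 without scaling was -0.17 for PFKM and -0.0067 for ANKRD37. For PGAM2 it was -0.71 with the median over probes, which disagree.

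With the dye orientation as a replicate block, the co-culture counts were 22 above 0, 3 below and 0 adjusted, and 21 above 0 for the same 6 arrays without the block. In the 12 channels with that block, 41 genes passed the F-test and 19, 12 and 11 the pairwise comparisons. The counts with the block lay within 1.5 times the reported ones. These fits take arrays or channels that carry the same RNA as separate observations, so technical repeats count as replicates in them. The shares of all genes in these fits are not given here. Dim genes such as EPAS1 and PFKFB1 are limited by background.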

Other observations

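Other genes of the same pathways were read from lists. Of 28 further hypoxia genes tested, 5 had a co-culture ratio above 0 at an unadjusted p under 0.05 and 0 below it, against 5.61% and 4.51% of all genes, and 0 passed the adjusted test (limma). Among the 5 were MIF, BNIP3, VEGFA and MXI1. BNIP3, a mitophagy receptor and HIF target, had the smallest p, at mean log2 ratios of 0.63 (P114), 0.48 (CMT-U27) and 0.70 (CMT-U309), 0.60 over the lines, above 0 on all 6 arrays. VEGFA, the vascular growth factor, had a mean of 0.37. With BNIP3, VEGFA, LOX and ERO1L, 4 of the 28 genes were above 0 on all 6 arrays (14.3%, against 2.39% of all genes). Their signs in P114 rest on the dyes its labels give. In the neighbouring pathways, 3 of 15 genes of gluconeogenesis and glycogen, 1 of 8 of the pentose phosphate pathway and 3 of 27 of pyruvate dehydrogenase and the citrate cycle were above 0 at that threshold.

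The 5 genes without a probe of their name have probes whose description names them, found after the files had been seen. P114 had the highest line mean for GPI (16.75, beside 15.47 in CMT-U27 and 15.41 in CMT-U309), for ALDOA (14.52, 13.93 and 13.76) and for both PGK1 probes (15.44, 13.93 and 14.22 at one of them). The oxygen sensor EGLN3 was highest in CMT-U309, with 5.32, 5.28 and 8.11. For pyruvate kinase PKM, which the list carries as PKM2, a probe had ratios of -1.06 and 1.30 in P114, 1.99 and 2.24 in CMT-U27, while CMT-U309 had 1.5 and 1.94, a mean of 1.32 ± 0.30 (SE; limma unadjusted p = 0.00133, adjusted p = 0.499). The second PKM probe gave a mean of 0.17, with ratios of -1.34 and -0.29 in P114 and above 0 on the other 4 arrays.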
